A study of Homo sapiens with 2 samples.

Results

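The mature arms of the miR-17-92 polycistron were counted in A549 cells, an established line from a human lung adenocarcinoma. The members were the 10 arm names of the chromosome 13 cluster that were asked for, and all 10 were listed among the 859 mature miRNAs of the small RNA table. Cells grown in DMEM with 10% FCS were kept for 24 h in normoxia (20% oxygen) or in hypoxia (1.2% oxygen) before lysis, and 1 library of total RNA was made for each condition. There is thus no replicate check and no p-value for any difference, and every interval below is a 95% interval that covers counting error only. The intervals are exact, except those of differences between ratios, which come from a normal approximation on the log scale. The table held 4514818 counts on mature miRNAs in normoxia and 8600160 in hypoxia, 70.0% and 65.6% of all its counts, of which miR-21-5p alone took 72.2% and 68.4%. Levels are given as CPM, counts scaled to these mature totals and multiplied by 1e6, without scaling for length, since the 10 arms are 22 or 23 nucleotides long.

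A polycistronic miRNA gene gives a single primary transcript that holds several hairpins. Each hairpin is cut by Drosha and Dicer into a duplex of a 5p and a 3p arm, of which an Argonaute protein usually keeps a preferred arm, the guide. The seed, bases 2 to 8 of the guide, pairs with messenger RNAs, so that arms with the same seed share many targets. The miR-17-92 host gene, MIR17HG, is transcribed under the control of MYC and E2F factors, is amplified in some lymphomas and is often highly expressed in lung cancers. Its arms fall into the miR-17, miR-18, miR-19 and miR-92 seed families, known for repressing regulators of the cell cycle such as CDKN1A and promoters of cell death such as BCL2L11.

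In GRCh38, GENCODE release 29 places MIR17HG on the plus strand of chromosome 13 from 91347820 to 91354579, with 3 annotated transcripts. The 6 hairpins lie within 787 bases, from 91350605 to 91351391, in the order MIR17, MIR18A, MIR19A, MIR20A, MIR19B1 and MIR92A1, with 35 to 92 bases between neighbours. All 6 are intronic in 1 transcript (MIR17HG-201) and exonic in the other 2 (MIR17HG-202 and MIR17HG-203). The positions in the count table are those of hg19, the build named in the labels, where miR-17-5p is given at 92002871 to 92002895 and miR-92a-3p at 92003614 to 92003637, each with 1 extra base at either end.

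The mature sequences of the 10 arms are shown because their seeds sort them into the groups used throughout. They come from RefSeq (GRCh38.p14), and the sequence deposited for each arm was the same once 1 flanking base was taken off at either end. Capitals mark the seed, and the prefix hsa- (human) is left out elsewhere.
hsa-miR-17-5p: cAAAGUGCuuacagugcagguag
hsa-miR-20a-5p: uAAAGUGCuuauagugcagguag
hsa-miR-18a-5p: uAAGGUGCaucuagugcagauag
hsa-miR-19a-3p: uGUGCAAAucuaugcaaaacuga
hsa-miR-19b-3p: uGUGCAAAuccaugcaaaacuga
hsa-miR-92a-3p: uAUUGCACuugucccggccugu
hsa-miR-17-3p: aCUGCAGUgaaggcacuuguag
hsa-miR-18a-3p: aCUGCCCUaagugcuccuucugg
hsa-miR-20a-3p: aCUGCAUUaugagcacuuaaag
hsa-miR-19b-1-5p: aGUUUUGCagguuugcauccagc
The first 6 are the arms with the higher count in their hairpin, 5p for MIR17, MIR18A and MIR20A and 3p for MIR19A, MIR19B1 and MIR92A1. Of these 6, 5 begin with U, and miR-17-5p begins with C. The 4 less abundant arms begin with A.

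The 10 arms together took the same share of mature counts in both libraries, to within less than 0.1 percentage points, but the make-up of that share was different. They held 3.38% of mature counts in normoxia (152579 counts, interval 3.36% to 3.40%) and 3.41% in hypoxia (293012 counts, 3.39% to 3.42%), a log2 ratio of hypoxia over normoxia of 0.012 (0.0028 to 0.021), which became -0.10 with TMM scaling. miR-19b-3p was higher in hypoxia and miR-20a-5p was lower, while miR-17-5p, miR-18a-5p, miR-19a-3p and miR-92a-3p lay between them. Without miR-19b-3p, the other 9 arms went from 2.33% to 2.02%, a log2 ratio of -0.21 (-0.22 to -0.20).

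The order of the arms by level was the same in both libraries, over a range from 10447 CPM to 1.77 CPM in normoxia. miR-19b-3p and miR-92a-3p were the sixth and the seventh most abundant mature miRNAs in normoxia, and the fifth and the seventh in hypoxia. In normoxia, miR-17-5p and miR-19a-3p could not be told apart, as their intervals overlapped, and in hypoxia the same held for miR-20a-3p and miR-19b-1-5p. All other neighbours in the order had separate intervals.

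**Figure D1:**
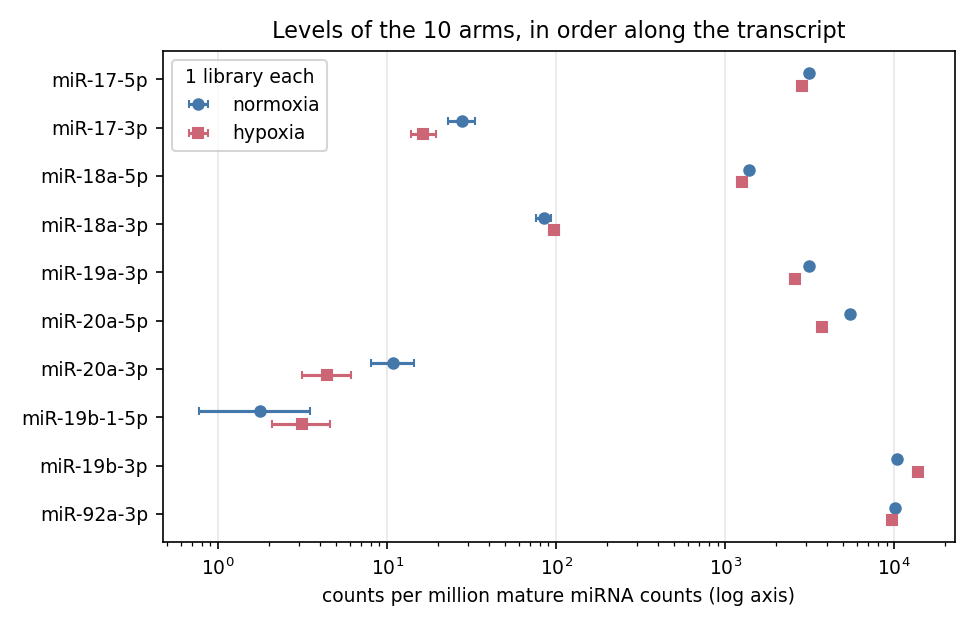
Levels of the 10 arms in the normoxia library (circles) and the hypoxia library (squares), in CPM of mature counts on a log axis, with exact 95% counting intervals; arms are listed from 5′ to 3′ along the transcript. The 6 abundant arms sit between 1257 and 13882 CPM, and the other 4 at or below 96.6 CPM.

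The miR-17 seed group of the polycistron, miR-17-5p and miR-20a-5p, is known for the repression of CDKN1A and of E2F factors. miR-20a-5p had 24645 counts (5459 CPM, interval 5391 to 5527) in normoxia and 31971 counts (3717 CPM, 3677 to 3758) in hypoxia. Its log2 ratio was -0.55 (-0.58 to -0.53). This ranked 307 from the highest among the 339 miRNAs with a mean log2 CPM above 3, and was the lowest of the 58 with at least 1000 CPM in both libraries, a set chosen after the values were seen. miR-17-5p had 14215 counts (3149 CPM, 3097 to 3201) in normoxia and 24623 counts (2863 CPM, 2827 to 2899) in hypoxia, a log2 ratio of -0.14 (-0.17 to -0.11). The 2 guides share a seed and differ by C1U and C12U (base of miR-17-5p, position from the 5′ end, base of miR-20a-5p), yet their ratio was not the same in the libraries. There were 1.73 counts of miR-20a-5p per count of miR-17-5p in normoxia and 1.30 in hypoxia. This difference, -0.42 on the log2 scale (counting interval from a normal approximation, -0.46 to -0.38), does not depend on how the libraries are scaled.

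miR-18a-5p is the polycistron's guide of the miR-18 family, whose seed is close to that of miR-17-5p. It was the least abundant of the 6 guides, with 6244 counts (1383 CPM, 1349 to 1418) in normoxia and 10811 counts (1257 CPM, 1234 to 1281) in hypoxia. Its log2 ratio of -0.14 (-0.18 to -0.09) was that of miR-17-5p, its neighbour on the transcript. There were 2.28 counts of miR-17-5p per count of miR-18a-5p in either library, a difference of 0.0006 on the log2 scale (-0.053 to 0.055).

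The miR-19 seed group is known as a main contributor to the oncogenic activity of the cluster in lymphoma. miR-19b-3p had 47168 counts (10447 CPM, 10354 to 10542) in normoxia and 119384 counts (13882 CPM, 13804 to 13960) in hypoxia, and its log2 ratio was 0.41 (0.39 to 0.43), which ranked 76 from the highest among the 339 miRNAs and 15 among the 58. It was the only one of the 6 guides that was higher in hypoxia, with total mature counts and under each of the 6 alternative settings. miR-19a-3p, which differs from it by the single substitution U11C (base of miR-19a-3p first), had 14079 counts (3118 CPM, 3067 to 3170) in normoxia and 22301 counts (2593 CPM, 2559 to 2627) in hypoxia, a log2 ratio of -0.27 (-0.30 to -0.24). The arms with this shared seed thus lay on either side of 0. There were 3.35 counts of miR-19b-3p per count of miR-19a-3p in normoxia and 5.35 in hypoxia, a difference of 0.68 (0.64 to 0.71) on the log2 scale. With both arms summed, so that reads given to the wrong one of them make no difference, the miR-19 seed group went from 1.36% to 1.65% of mature counts, a log2 ratio of 0.28 (0.27 to 0.29), which became 0.17 with TMM scaling and 0.08 after removal of the 10 most abundant miRNAs of either library from the totals.

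miR-92a-3p, at the 3′ end of the cluster, is the guide of the miR-92 seed family, which includes miR-25 and is known for acting on integrin and survival genes. It had 45665 counts (10114 CPM, 10022 to 10207) in normoxia and 82885 counts (9638 CPM, 9572 to 9703) in hypoxia. Its log2 ratio, -0.07 (-0.09 to -0.05), was the one nearest to 0 among the guides with this scaling.

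Among the 10 arms, the shares therefore moved between guides. The miR-19b-3p and miR-92a-3p sequences are also encoded on the X chromosome, so the shift cannot be placed within the chromosome 13 transcript alone. miR-19b-3p made up 30.9% of the counts on the 10 arms in normoxia (30.7% to 31.1%) and 40.7% in hypoxia (40.6% to 40.9%), while miR-20a-5p made up 16.2% (16.0% to 16.3%) and 10.9% (10.8% to 11.0%). The counts of the miR-19 seed group per count of the miR-17 seed group were 1.58 in normoxia and 2.504 in hypoxia, a log2 difference of 0.67 (0.64 to 0.69). This difference rested on miR-19b-3p, since with miR-19a-3p alone in place of the group it was 0.12 (0.086 to 0.16). Of the 15 pairs that the 6 guides form, 14 had a difference between the libraries whose counting interval left out 0. This was common at these depths, as the same held for 92.7% of 1638 other pairs among the 58 miRNAs with at least 1000 CPM in both libraries, with a median absolute difference of 0.35 against 0.42 for the 15 pairs. The pair of miR-17-5p and miR-18a-5p was the exception among the 15, and their largest difference, 0.96 (0.94 to 0.99), was between miR-19b-3p and miR-20a-5p, whose hairpins are neighbours with 56 bases between them.

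**Figure D2:**
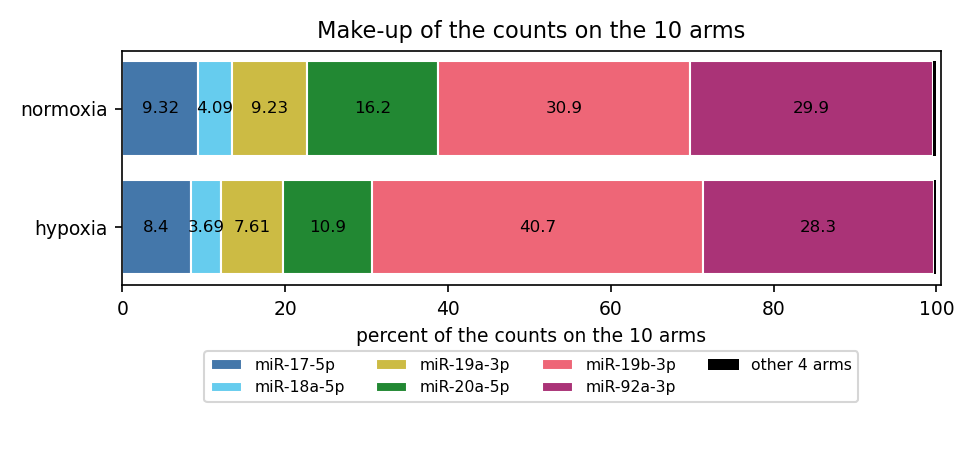
Share of each abundant arm in the counts on the 10 arms, in percent, for the normoxia and the hypoxia library; segments run from 5′ to 3′ along the transcript and carry their percentages. The segment of miR-19b-3p grows from 30.9% to 40.7% and that of miR-20a-5p shrinks from 16.2% to 10.9%.

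The ratios were set beside those of all mature miRNAs. A miRNA was counted as higher or lower where its log2 ratio was at least 0.9 in size and its mean log2 CPM was above 3, a filter that 339 of the 859 mature miRNAs and 8 of the 10 arms passed. Of the 8 arms, 0 met this rule in either direction, against 12 of 339 miRNAs higher (3.54%), 11 lower (3.24%) and 6.78% in both directions together. With TMM scaling, the split over all miRNAs was 8 higher and 15 lower, and after removal of the 10 most abundant miRNAs of either library from the totals it was 5 and 19, and miR-17-3p then met the rule on the lower side (-0.95), 1 of the 8 arms against 5.60% of the 339 miRNAs. Without the filter and with total mature counts, miR-20a-3p alone among the 10 arms was past 0.9, on the lower side, against 13.6% of the 859 miRNAs lower, 17.3% higher and 31% in both directions together. Under the reduced totals miR-17-3p was on the lower side as well, where 15.5% of the 859 lay. With the hypoxia library thinned to the depth of the normoxia library, miR-19b-1-5p (0.91) was on the higher side, where 18.98% of the 859 lay.

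The median log2 ratio of the 339 miRNAs was 0.079, with a middle 50% from -0.22 to 0.39, and 202 of them lay above 0. Of the 8 arms past the filter, 2 lay above 0 (miR-19b-3p and miR-18a-3p) and 6 below, with a median of -0.14. Against the median of the 339, which takes out the scaling of the libraries, miR-19b-3p stood 0.33 higher and miR-20a-5p 0.63 lower. TMM scaling moved all log2 ratios by -0.11, which left the sign of each of the 10 arms as it was. With totals from which the most abundant miRNAs were removed the shift was -0.20, and the sign of miR-18a-3p turned, from 0.20 to -0.0002.

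**Figure D3:**
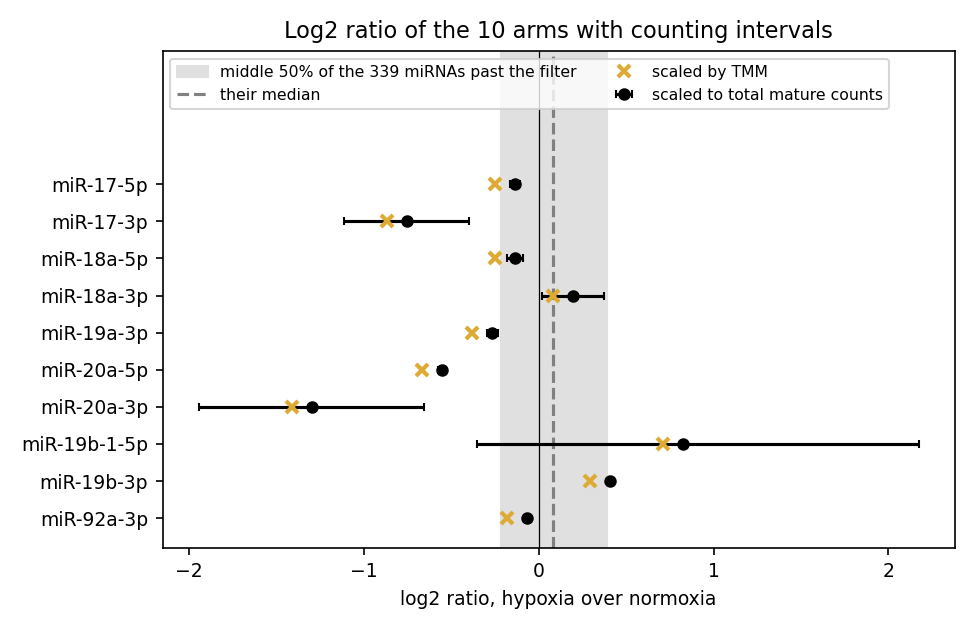
Log2 ratio of hypoxia over normoxia for the 10 arms, scaled to total mature counts (points, with exact 95% counting intervals) and by TMM (crosses); the grey band is the middle 50% of the 339 miRNAs past the filter and the dashed line their median of 0.079. miR-20a-5p, miR-19a-3p, miR-17-3p and miR-20a-3p lie left of the band, and miR-19b-3p lies just right of it at 0.41, while miR-19b-1-5p lies farther right at 0.83, with an interval that spans 0.

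The arms kept at low level are the partner strands that are mostly lost after the duplex is opened. miR-18a-3p was the most abundant of them, with 381 counts (84.4 CPM, 76.1 to 93.3) in normoxia and 831 counts (96.6 CPM, 90.2 to 103) in hypoxia. miR-17-3p had 125 counts (27.7 CPM, 23.0 to 33.0) and 141 counts (16.4 CPM, 13.8 to 19.3), and miR-20a-3p had 49 counts (10.9 CPM, 8.03 to 14.3) and 38 counts (4.42 CPM, 3.13 to 6.06). miR-19b-1-5p had only 8 and 27 counts, and its log2 ratio of 0.83 had an interval from -0.35 to 2.17, so that no direction was detectable at this depth. The log2 ratios of miR-17-3p, -0.76 (-1.11 to -0.40), and of miR-20a-3p, -1.30 (-1.95 to -0.66), lay below those of the guides from the same hairpins. For miR-18a-3p the log2 ratio, 0.20 (0.02 to 0.37), lay above that of its guide.

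The count ratio of guide to partner arm differed between hairpins by over an order of magnitude. In normoxia, MIR18A gave 16.4 counts of miR-18a-5p per count of miR-18a-3p (14.8 to 18.2), MIR17 gave 114 of its 5p arm per 3p arm (95.4 to 137) and MIR20A 503 (380 to 680). For the hairpins with a 3p guide the counts give only a limit or no ratio. MIR92A1 gave 3805 counts of miR-92a-3p per count of miR-92a-1-5p (2178 to 7365) and MIR19B1 gave 5896 of miR-19b-3p per miR-19b-1-5p (2992 to 13658). For MIR19A, miR-19a-5p had 2 counts in normoxia and 1 in hypoxia, at or under the 3 counts that a count of 0 allows, so that no ratio is given. The values of MIR19B1 and MIR92A1 are upper limits for these hairpins, since the sequences of miR-19b-3p and miR-92a-3p are also encoded on the X chromosome.

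In hypoxia the count ratio of guide to partner was 13.01 for MIR18A (12.1 to 14.0), 175 for MIR17 (148 to 208) and 841 for MIR20A (613 to 1189). The hairpins of the miR-17 seed group were thus more one-sided in hypoxia, and MIR18A, which lies between them, was less so. On the log2 scale the difference of the ratio between libraries was 0.62 for MIR17 (normal-approximation counting interval 0.27 to 0.97), 0.74 for MIR20A (0.13 to 1.35) and -0.33 for MIR18A (-0.51 to -0.15). For MIR92A1 it was -0.84, larger in size than the other 3 and in the direction of MIR18A, but with an interval that held 0 (-1.77 to 0.09), as did that of MIR19B1 (-0.42, -1.55 to 0.72). Differences of this size between the arms of a hairpin were common. Among the 73 hairpins with both arms past the filter the median absolute difference was 0.43, and 21 other hairpins had one at least as large as that of MIR17 and 45 one at least as large as that of MIR18A. MIR20A is not among the 73, as miR-20a-3p did not pass the filter.

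**Figure D4:**
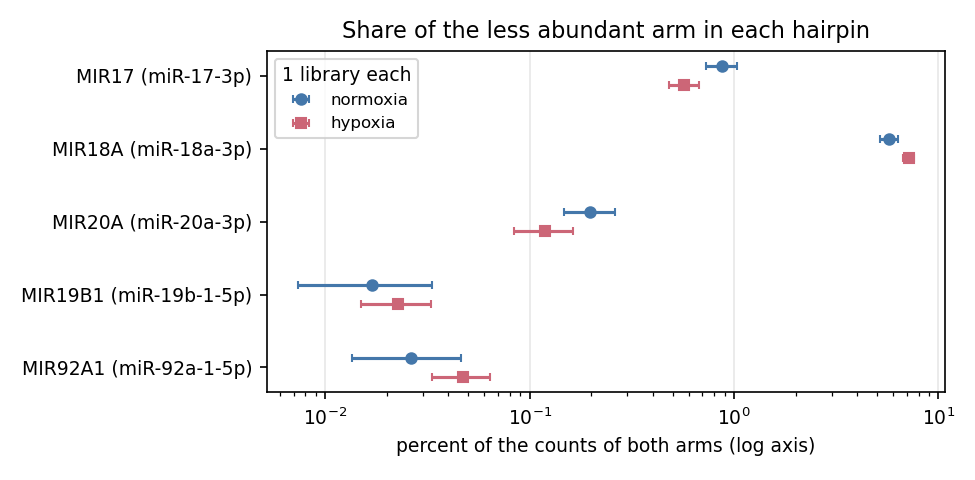
Share of the less abundant arm in the counts of both arms of 5 hairpins, in percent on a log axis, for the normoxia library (circles) and the hypoxia library (squares), with exact 95% counting intervals. MIR18A stands apart at 5.75% and 7.14%, and the shares of MIR17 and MIR20A are lower in hypoxia (0.569% against 0.872% and 0.119% against 0.198%).

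The polycistron has 2 paralogs, miR-106a-363 on the X chromosome and miR-106b-25 on chromosome 7, which bring arms with the same seeds. The X chromosome cluster holds further copies of the miR-19b-3p and miR-92a-3p sequences (hairpins MIR19B2 and MIR92A2), which counts cannot assign to a chromosome. The arms that are particular to it were scarce. Of 10 names, 6 were listed, and they summed to 0.0159% of mature counts in normoxia (0.0148% to 0.0171%) and 0.0123% in hypoxia (0.0116% to 0.0131%). The arms miR-106a-3p, miR-20b-3p, miR-19b-2-5p and miR-92a-2-5p are not listed. The log2 ratio of the 6 listed arms together was -0.37 (-0.51 to -0.23). Most of these counts were on miR-18b-5p (-0.54, -0.73 to -0.35) and miR-106a-5p (-0.25, -0.50 to -0.0029), and miR-363-3p was also below 0 (-1.09, -1.93 to -0.26), while miR-20b-5p had a ratio above 0 with an interval that held 0 (0.21, -0.21 to 0.65). The part of MIR19B2 in the miR-19b-3p counts was not tested.

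Near-identical sequences could exchange reads. Among the members, miR-19a-3p and miR-19b-3p differ by 1 substitution and miR-17-5p and miR-20a-5p by 2, and exchange of reads within these pairs was not tested. The X chromosome arms most open to exchange with members are shown with the seed in capitals.
miR-106a-5p: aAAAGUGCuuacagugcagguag
miR-20b-5p: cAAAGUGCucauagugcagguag
miR-18b-5p: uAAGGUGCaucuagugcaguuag
miR-106a-5p differs from miR-17-5p by the substitution C1A alone, and miR-18b-5p differs from miR-18a-5p by A20U alone (base of the polycistron arm first, positions from the 5′ end). miR-20b-5p differs from miR-20a-5p by U1C and U10C. These look-alikes were at 49.4 CPM (miR-106a-5p), 87.9 CPM (miR-18b-5p) and 15.1 CPM (miR-20b-5p) in normoxia, and at 41.5, 60.3 and 17.4 CPM in hypoxia. Adding them changed the ratios by less than the counting intervals. The sum of miR-17-5p, miR-20a-5p, miR-106a-5p and miR-20b-5p had a log2 ratio of -0.39 (-0.40 to -0.37), and so had miR-17-5p and miR-20a-5p without the other 2 (-0.39, -0.41 to -0.37). For miR-18a-5p with miR-18b-5p it was -0.16 (-0.20 to -0.12).

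The chromosome 7 cluster, within the gene MCM7, was the larger source of other arms with the seeds of the polycistron. Its 6 arms took 0.985% of mature counts in normoxia (0.976% to 0.994%) and 1.05% in hypoxia (1.04% to 1.05%), a log2 ratio of 0.09 that became -0.03 with TMM scaling and -0.11 with the reduced totals. The guide sequences of this cluster are
miR-106b-5p: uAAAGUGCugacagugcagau
miR-93-5p: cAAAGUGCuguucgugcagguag
miR-25-3p: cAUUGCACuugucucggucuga
with the seed of miR-17-5p in the upper pair and that of miR-92a-3p in miR-25-3p. miR-106b-5p was at 5818 CPM in normoxia and 5331 CPM in hypoxia (log2 ratio -0.13, -0.15 to -0.10), close to miR-17-5p in its ratio. miR-93-5p was at 937 and 1550 CPM (0.73, 0.68 to 0.78) and miR-25-3p at 2870 and 3299 CPM (0.20, 0.17 to 0.23). The 3 guides of this cluster thus lay on either side of 0, as those of the polycistron did.

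The part that the polycistron took in each seed family differed between families. All listed arms with the miR-19 seed are its own members (61247 and 141685 counts), and 94.0% of the miR-18 seed counts were those of miR-18a-5p in normoxia (95.4% in hypoxia). For the miR-92 seed, miR-92a-3p held 72.1% in normoxia (71.7% to 72.4%) and 67.7% in hypoxia (67.4% to 68.0%), beside miR-25-3p, miR-92b-3p, miR-32-5p and miR-363-3p. For the miR-17 seed, miR-17-5p and miR-20a-5p together held 55.8% in normoxia (55.4% to 56.2%) and 48.7% in hypoxia (48.4% to 49.0%). Here miR-106b-5p was the most abundant arm in both libraries, with 37.7% and 39.4% of the family's counts. The whole miR-17 family went from 1.54% to 1.35% of mature counts and the miR-92 family from 1.40% to 1.42%, where the log2 ratio of 0.02 became -0.09 with TMM scaling.

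**Figure D5:**
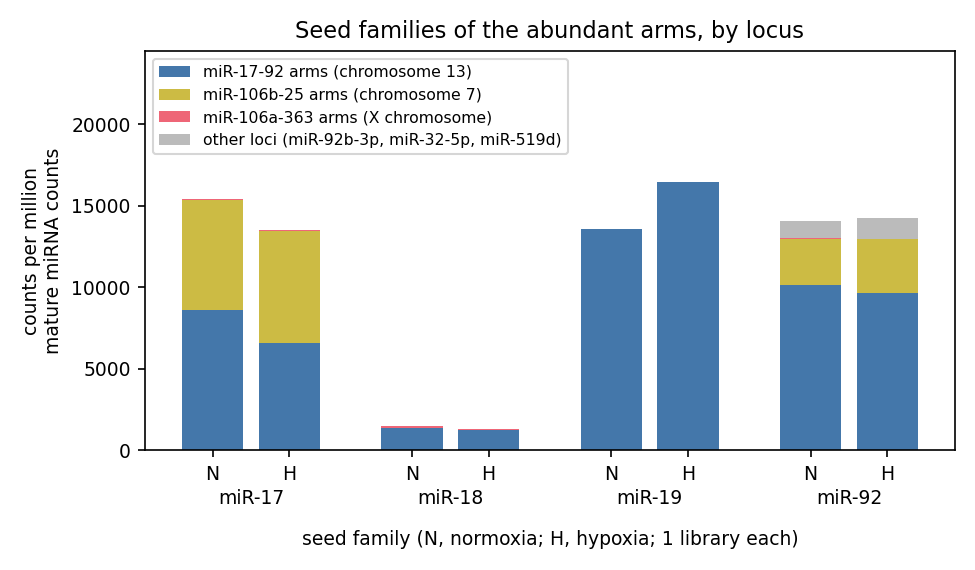
Summed level of the listed arms with each seed, in CPM of mature counts, for the normoxia (N) and the hypoxia (H) library, coloured by locus (miR-19b-3p and miR-92a-3p are drawn as chromosome 13, although the X chromosome encodes them too). The miR-19 bar is wholly made of polycistron arms, while chromosome 7 arms make up much of the miR-17 bar.

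By level in the 2 libraries, the miRNAs most like miR-19b-3p, the most abundant arm, were miR-30a-5p and miR-92a-3p, at distances of 0.25 and 0.53 (Euclidean distance of the log2 CPM over 2 libraries). miR-30a-5p was at 10527 CPM in normoxia, just above miR-19b-3p, and at 11709 CPM in hypoxia, just below it. In hypoxia the miRNA next above miR-19b-3p was miR-22-3p, at 18280 CPM.

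Both labels were checked on other miRNAs. miR-210, a miRNA known to be induced by low oxygen, was at 954 CPM in normoxia and 2657 CPM in hypoxia, the highest log2 ratio of the 339 (1.48, 1.43 to 1.52). The 6 epithelial markers (miR-200 family and miR-205) were all listed and summed to 1168 and 1362 CPM. Most of this was miR-200b-3p, at 880 and 1085 CPM. miR-200a-3p was at 132 and 138 CPM, and miR-429 at 91.5 and 87.4 CPM. Lower still were miR-141-3p (37.2 and 25.5 CPM), miR-200c-3p (24.1 and 24.8 CPM) and miR-205-5p (2.66 and 1.74 CPM). The 4 mesenchymal markers summed to 239 and 236 CPM, endothelial miR-126-3p was at 179 and 190 CPM, the 2 neuronal markers summed to 52.1 and 53.1 CPM, and 4 of 6 blood markers were listed, with 19.9 and 23.4 CPM (miR-223-3p and miR-144-3p are not listed). Hepatocyte miR-122-5p had 4 counts in either library, and of 3 muscle markers only miR-133a was listed (0 and 18 counts). The part of such RNA in the levels of the polycistron arms was not tested.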

How the data were processed

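Small RNA libraries were made from total RNA by ligation, reverse transcription and PCR with a small RNA kit for SOLiD and size-selected, with no molecular identifiers named. The table the authors deposited holds raw counts of reads for each small RNA feature, not normalized. For SOLiD data the study's methods name the LifeScope small RNA pipeline with default parameters and miRBase annotation, without naming this experiment, and the labels name hg19. The sources used here do not give how reads that match several features were counted. Counts of sequences that ligate unequally are not molar amounts, so levels of different arms are compared as counts.

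From the deposited counts, CPM over the 859 mature miRNAs were computed for the normoxia and the hypoxia library (1 each, grouped by title). Shares and levels have exact Clopper-Pearson 95% intervals, log2 ratios exact conditional binomial intervals, and differences between ratios a normal approximation on the log scale. They cover counting error only. With 1 library per condition no test was run. The size rule takes the thresholds the study used to select genes that were lower in its RNA sequencing, and applies them here in both directions. Features are listed from 3 counts over both libraries upwards. Alternatives were TMM (edgeR 4.0.16), DESeq2 1.42.0 size factors (R 4.3.3), other denominators, a prior count of 2, filters, thresholds and thinning of the hypoxia library. Python 3.11.15 and scipy 1.17.1 were used for the rest, and the calculations were tested on simulated data.

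The members and lists were chosen with earlier results of these data known. The set of 58 miRNAs with at least 1000 CPM, its pairs and the sums with look-alikes were chosen after the values were seen. The rule for named miRNAs took the 10 arms, their partner arms, the arms of both paralog clusters, other arms with a member's seed, the miRNAs nearest to the most abundant arm and miR-210.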

Additional observations from a re-analysis of the deposited data

Results flagged for a closer look

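The table also lists the 6 hairpins of the polycistron as features of their own, outside the mature names, and no comparison above uses them. Those with more counts than the 3 that a count of 0 allows were MIR20A (21 in normoxia, 32 in hypoxia), MIR92A1 (5 and 27), MIR18A (7 and 6), MIR19B1 (4 in normoxia), MIR19A (5 in hypoxia) and MIR17 (4 in hypoxia). All 6 hairpin features came to 40 counts in normoxia and 75 in hypoxia, against 152579 and 293012 on the 10 mature arms. MIR20A had the highest count among the hairpin features in both libraries, in hypoxia only by 32 against 27 for MIR92A1, without an interval to tell them apart. MIR19B1, the hairpin with the most abundant mature arm, had 4 counts in normoxia and 1 in hypoxia. There was no control library to set these counts against.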

How the results depend on the processing

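The log2 ratio of the 10 summed arms, 0.012 with total mature counts, was -0.10 with TMM, -0.059 with DESeq2 size factors, -0.18 with totals without the 10 most abundant miRNAs, -0.083 over all counts of the table, and -0.18 (-0.175) over mature counts without miR-21-5p, so that its direction depends on the scaling. With total mature counts but without miR-19b-3p and miR-92a-3p in the sum it was -0.33. The share of the 10 arms, 3.38% in normoxia and 3.41% in hypoxia, was 1.32% and 1.06% with miR-19b-3p and miR-92a-3p left out of the sum. By construction of the denominators it was 2.37% and 2.23% over all counts, and 12.2% and 10.8% over mature counts without miR-21-5p. The log2 difference of the miR-19 over the miR-17 seed group, 0.67, was 0.42 with medians of the arms and 0.12 with miR-19a-3p alone. Of the 339 miRNAs, 12 were higher (3.54%) and 11 lower (3.24%). Without a filter it was 149 (17.3%) and 117 (13.6%) of 859, so the shares rose along with the number considered. The split became 5 and 19 with totals without the most abundant miRNAs, 9 and 7 with a mean CPM of at least 20, and 8 and 7 with a log2 threshold of 1. With DESeq2 size factors it was 10 and 15, and with TMM 8 and 15. By construction, TMM, DESeq2 size factors and the other denominators each shift all log2 ratios by the same amount, and a log2 threshold of 1 can only remove calls. For other changes where no construction is named, the cause was not tested. Of the 10 arms, 9 kept the sign of their ratio under all 6 alternatives, the exception being miR-18a-3p. The values of arm ratios and seed family shares moved by less than their intervals. No paired analysis was possible because normoxia and hypoxia have 1 library each, which also means that none could be left out. Depth limits miR-19b-1-5p and miR-19a-5p.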
